A study of Rattus norvegicus with 17 samples.

Results

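Cxcl13 encodes a secreted chemokine that draws B cells and follicular helper T cells into lymphoid follicles. It was 1 of 14218 genes with a symbol on the rat arrays of this study and was measured by 1 of their 31099 probe sets, the only one whose single gene symbol was Cxcl13. The gene was chosen by its measured difference between axotomised and not axotomised neurons, so its values in that contrast are given as a description, without a test. The arrays measured RNA of retrogradely labelled rat spinal cord neurons, 1000 per sample, cut by laser from 10 µm sections of unfixed cord and amplified in 3 rounds. The samples formed 3 groups. Each of 7 rats gave both a regenerating and a non-regenerating sample of axotomised neurons: MOON265, MOON266, MM11, MM13, MM14, MM16 and MM17. The third group, traced neurons without axotomy, was taken from rats MM15, MM18 and MM19. The labels used here state no strain, age, sex, type of injury or time after it, and call the MM15 sample a high yield replicate. Each sample gave 1 array, so precision is limited by how few arrays there were.

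CXCL13 acts through the receptor CXCR5, which is carried by B cells and follicular helper T cells. In lymphoid organs its main source is the follicular dendritic cell and related stroma, where lymphotoxin and TNF signals acting through NF-kB maintain its transcription. In the nervous system it is best known from inflamed meninges and cerebrospinal fluid, from activated microglia and macrophages, and from spinal neurons after peripheral nerve injury in rodent models of pain.

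The promoter of the gene is shown because transcription of a chemokine is usually set there. The RefSeq table used here places the 250 bases before the start of Cxcl13 at chr14:13917921-13918170 of the rat build GRCr8, on the minus strand, and the letters below run 5′ to 3′ towards the start, with a TATA box sequence in capitals.

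Cxcl13 promoter: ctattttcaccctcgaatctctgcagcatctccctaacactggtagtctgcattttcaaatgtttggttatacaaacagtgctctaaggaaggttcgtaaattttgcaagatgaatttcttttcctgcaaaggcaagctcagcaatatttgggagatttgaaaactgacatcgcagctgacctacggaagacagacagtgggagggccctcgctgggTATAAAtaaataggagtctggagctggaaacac

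TATAAA lay 33 to 28 bases before the start. This hexamer was found on either strand in 12.9% of 33469 rat promoter windows of the same length. The window held 0 matches, on either strand, to TGANTCA (the AP-1 motif, in 6.34% of promoters), TGACGTCA (the CRE motif, in 1.59%), TTCNNNGAA (the STAT motif, in 7.67%) or the NF-kB kappaB consensus (in 6.33%). These matches describe letters in this window and nothing more. G and C made up 43.6% of the window, against a median of 51.2% over all promoters.

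Before the values, some features of the arrays bear on them. The arrays had been scaled by the authors to a common level, with a trimmed mean signal of 200.04 to 200.08, but their median signal was 32.8 to 39.0 on MOON arrays and 45.2 to 76.9 on MM arrays. All not axotomised rats were MM animals. Non-regenerating MM17 and not axotomised MM15 stood apart, and correlated with the remaining arrays at a median r of 0.8465 and 0.821 over tested probe sets. Of the 18 neuron markers on the list used here, 17 passed the filter on dim probe sets, which left out the dimmest 40% by mean log2 signal. Nefm, a neurofilament subunit of neurons, had a signal of 3675 to 4219 without axotomy, 2398 to 4519 in non-regenerating and 2760 to 4932 in regenerating neurons. It is 1 marker picked after its values were seen. Over the 17, log2 differences from not axotomised neurons ran from -0.76 to 0.38 in non-regenerating and from -0.96 to 1.40 in regenerating neurons. Markers of other cells passed the filter too, 14 of the 14 astrocyte markers and 10 of the 11 oligodendrocyte markers on the array.

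In neurons that had not been axotomised, Cxcl13 had a signal of 52.9 in MM15, 34.5 in MM18 and 60.1 in MM19, a mean of 49.2 ± 13.2 (SD, n = 3). These 3 signals lay below the median signal of their own arrays, which was 63.7 to 76, and without detection calls it was not settled whether they exceeded background. In non-regenerating neurons it was 2345.5 in MOON265, 1990.4 in MOON266, 3831.3 in MM11, 3055.1 in MM13, 2289.5 in MM14, 2106.5 in MM16 and 2973.3 in MM17, a mean of 2656 ± 660 (SD, n = 7). In regenerating neurons it was 2888 in MOON265, 2498.1 in MOON266, 2546.3 in MM11, 2383 in MM13, 1368.3 in MM14, 2524.9 in MM16 and 961.4 in MM17, a mean of 2167 ± 712 (SD, n = 7). All 14 axotomised arrays lay above all 3 not axotomised ones, and the axotomised groups overlapped each other between 1990.4 and 2888. Against the not axotomised arrays, 1.1% of all tested probe sets were higher without overlap in non-regenerating and 2.35% in regenerating neurons.

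**Figure D1:**
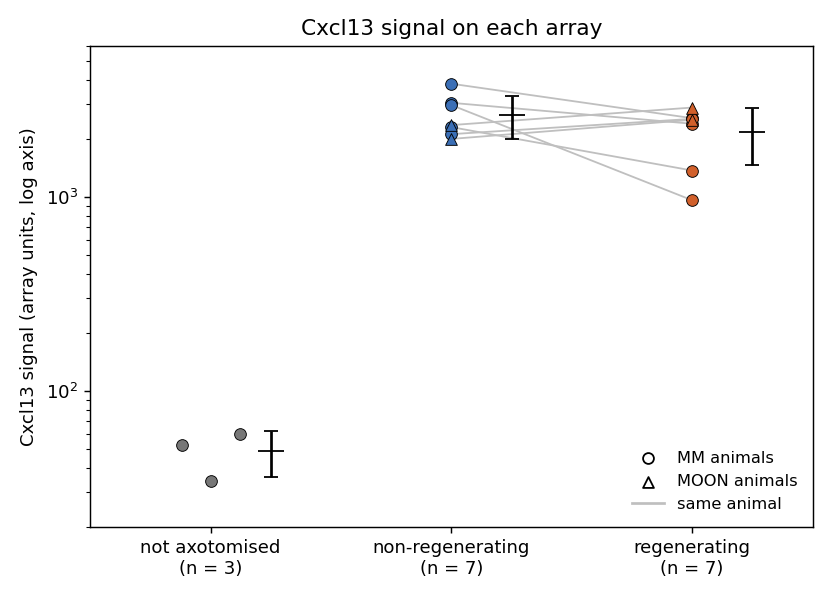
Cxcl13 signal on each of the 17 arrays by group, on a log axis; circles are MM animals, triangles MOON animals, grey lines join the samples of 1 animal, and black bars give the mean ± SD. The 3 not axotomised arrays sit between 34.5 and 60.1, and the 14 axotomised arrays between 961.4 and 3831.3.

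The order of the group means was not axotomised, regenerating and non-regenerating. The lowest non-regenerating array was 33.1 times the highest not axotomised one, and the lowest regenerating array 16 times. Relative spread was of the same order in the 3 groups, with a coefficient of variation of 26.9% without axotomy, 24.9% in non-regenerating and 32.8% in regenerating neurons. The highest array was 1.92 times the lowest among non-regenerating samples and 3.00 times among regenerating samples, where MM14 and MM17 were the low ones. More neurons with Cxcl13 RNA and more of that RNA per neuron cannot be told apart in samples of 1000 pooled cells. Whether part of the RNA came from other cells captured with the neurons was not tested.

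On the scale used for fitting, log2 of the signal plus an offset of 16, non-regenerating neurons exceeded not axotomised ones by 5.34 (SE 0.24 by limma, n = 7 and 3), a 40.6-fold difference. Regenerating neurons exceeded them by 4.999 (SE 0.32, n = 7 and 3), a 32.0-fold difference. The offset shrinks ratios of low signals, and the plain ratios of group means were 54.0 and 44.1. Since the not axotomised signal may be background, all of these folds depend on a level that may not be Cxcl13 RNA. Both comparisons use the same 3 not axotomised arrays, so they are not independent of each other.

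Cxcl13 had the largest positive log2 difference of the 18625 tested probe sets in both comparisons. The next largest was 2.34 in the comparison of non-regenerating neurons and 2.65 in that of regenerating neurons. It held the first rank in each of 21 other settings for either comparison, in which the runner-up reached at most 3.22 and 3.49. The gene was chosen by this contrast and the settings reuse the same arrays, so its rank is a description and no independent support. Among MM animals alone, which removes the difference in name prefix between the groups, the differences were 5.45 for non-regenerating and 4.84 for regenerating neurons. Without the 2 arrays that stood apart they were 5.36 and 5.05.

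Whether the level of Cxcl13 goes with regrowth of the axon was addressed within the 7 animals that gave both axotomised groups. The regenerating sample had 66.5% of the signal of the non-regenerating one in MM11, 78.0% in MM13, 59.8% in MM14 and 32.3% in MM17. It had 120% in MM16, 123% in MOON265 and 126% in MOON266. Regenerating neurons were thus lower in 4 animals and higher in 3, and no shared direction was seen.

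The mean log2 difference within animals, regenerating minus non-regenerating, was -0.34 (SE 0.20 by limma, n = 7 pairs), with a limma 95% interval from -0.77 to 0.08. The adjusted p was 0.72 by limma with the animal as a block, over all tested probe sets. A two-sided exact sign-flip test over the 7 animals gave p = 0.234, where 0.0156 is the smallest such a design can give. The limma interval, whose spread is moderated over all probe sets, runs from a 1.71-fold lower to a 1.06-fold higher level in regenerating neurons. The spread of the 7 differences alone (SD 0.71) gave a wider 95% interval, from -1.003 to 0.32. Differences of either direction within these intervals were compatible with the values of the 7 animals. The smallest difference that 7 animals could detect was not computed.

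The largest of the 7 differences was that of MM17, at -1.61, and its non-regenerating array was 1 of the 2 that stood apart. Without MM17 the mean difference was -0.13. The 5 MM animals averaged -0.61 and the 2 MOON animals 0.31, so the direction was not the same in the 2 name prefixes. The gap between them, 0.92, did not pass an exact permutation test (two-sided p = 0.143, 21 arrangements, smallest possible 0.0476). The 2 MOON differences were the highest of the 7. With 2 animals against 5 there are too few arrangements for this test to settle whether the prefixes differ.

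**Figure D2:**
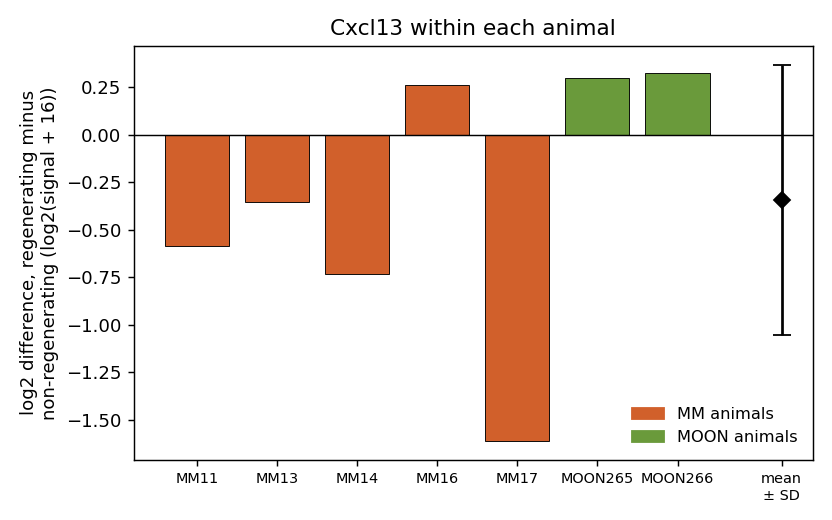
Log2 difference of Cxcl13 between the regenerating and the non-regenerating sample of each animal, as bars from 0, with the mean ± SD over the 7 animals as a diamond. 4 MM animals lie below 0, down to -1.61 in MM17, and MM16 and both MOON animals lie between 0.26 and 0.33.

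The other chemokine ligands give the family around Cxcl13. The list of CXC, CX3C and C ligands held 16 genes beside Cxcl13, of which 14 were on the array under a single symbol and 9 passed the filter. Cxcl3, Cxcl6, Ppbp, Cxcl9 and Xcl1 were too dim to be tested. "Rose" and "fell" below mean an adjusted p under 0.05 by limma over all tested probe sets. That threshold called 0.043% of probe sets higher and 0% lower in non-regenerating against not axotomised neurons, and 0.156% higher and 0.0591% lower in regenerating against not axotomised ones.

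Of the 9 tested ligands other than Cxcl13, 0 rose or fell in non-regenerating neurons by limma, and 1 was higher and 0 lower without adjustment, at p under 0.05. That threshold took 2.68% of all tested probe sets as higher and 7.61% as lower. In regenerating neurons 1 rose, Cxcl16, and the unadjusted counts were 1 higher and 1 lower, against 5.98% and 17.6% of all. The median log2 difference of the 9 was 0.01 and -0.03, against -0.12 and -0.12 over all tested probe sets. In these values the size of the Cxcl13 difference was not shared by its family.

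Cxcl16, a membrane-bound chemokine that is also shed and is a ligand of CXCR6, had a signal of 22.6 in MM15, 71.4 in MM18 and 116.4 in MM19 without axotomy. It ranged from 206.1 to 346 in non-regenerating neurons (median 296.1) and from 207.1 to 440.8 in regenerating neurons (median 291). Neither axotomised group overlapped the not axotomised arrays, and MM15 was the lowest of those. Over all tested probe sets, 1.1% were higher without overlap in non-regenerating and 2.35% in regenerating neurons. Its log2 difference was 1.96 in regenerating neurons (SE 0.35, adjusted p = 0.035 by limma, n = 7 and 3) and 1.97 in non-regenerating neurons (SE 0.33, adjusted p = 0.052 by limma). The call in regenerating neurons was lost without not axotomised MM15, where the difference was 1.47 and the adjusted p by limma 0.23. It was also lost without MM18 (2.06) and without regenerating MM11 (1.95), MM13 (2.03), MM14 (1.999) or MOON266 (1.86), with adjusted p values of 0.053 to 0.11 by limma, and with an offset of 1 (2.27, adjusted p = 0.0504 by limma).

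The remaining ligands of this list did not pass the test. Cx3cl1, the neuronal chemokine fractalkine whose receptor marks microglia, had differences of -0.50 and -0.69 in non-regenerating and regenerating neurons. Its signal was 329.2 to 395.9 without axotomy and 125.9 to 322.1 in regenerating neurons, ranges that did not overlap, as was the case, in the lower direction, for 9.36% of all tested probe sets. Cxcl12, which guides cells through CXCR4 and is expressed widely in the nervous system, had differences of -0.04 and -0.03, and of -0.34 and -0.48 at its other tested probe set. The sign of the first pair turned when arrays were centred on their medians, to 0.32 and 0.36. Pf4, the platelet chemokine CXCL4, had differences of 0.01 and 0.32.

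Of the 21 CC ligands listed, 16 were on the array and 7 were tested. By limma 0 rose or fell in either comparison, and at an unadjusted p under 0.05 only Ccl2 was higher in non-regenerating neurons and only Ccl7 lower in regenerating neurons, where the shares of all tested probe sets were 2.68% and 17.6%. The medians were -0.30 and -0.33. They were 0.06 and 0.06 once arrays were centred on their medians, a setting that moved the median of all tested probe sets to 0.24 and 0.26, so the sign of such small list medians depends on the scaling. Ccl2, the monocyte-attracting chemokine known from injured neurons, had differences of 1.10 (SE 0.35) and 0.88 (SE 0.45), with ranges of 4.9 to 30.4 without axotomy, 24.1 to 91.5 in non-regenerating and 5.8 to 111.3 in regenerating neurons. Ccl19, which with Ccl21 organises the T cell zone of lymphoid tissue, had differences of 0.17 and 0.23, which turned to -0.16 and -0.09 without not axotomised MM15. Ccl21 itself was too dim, with means of 4.53, 2.54 and 2.76 in not axotomised, non-regenerating and regenerating neurons. Neither chemokine of the T cell zone was therefore called.

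**Figure D3:**
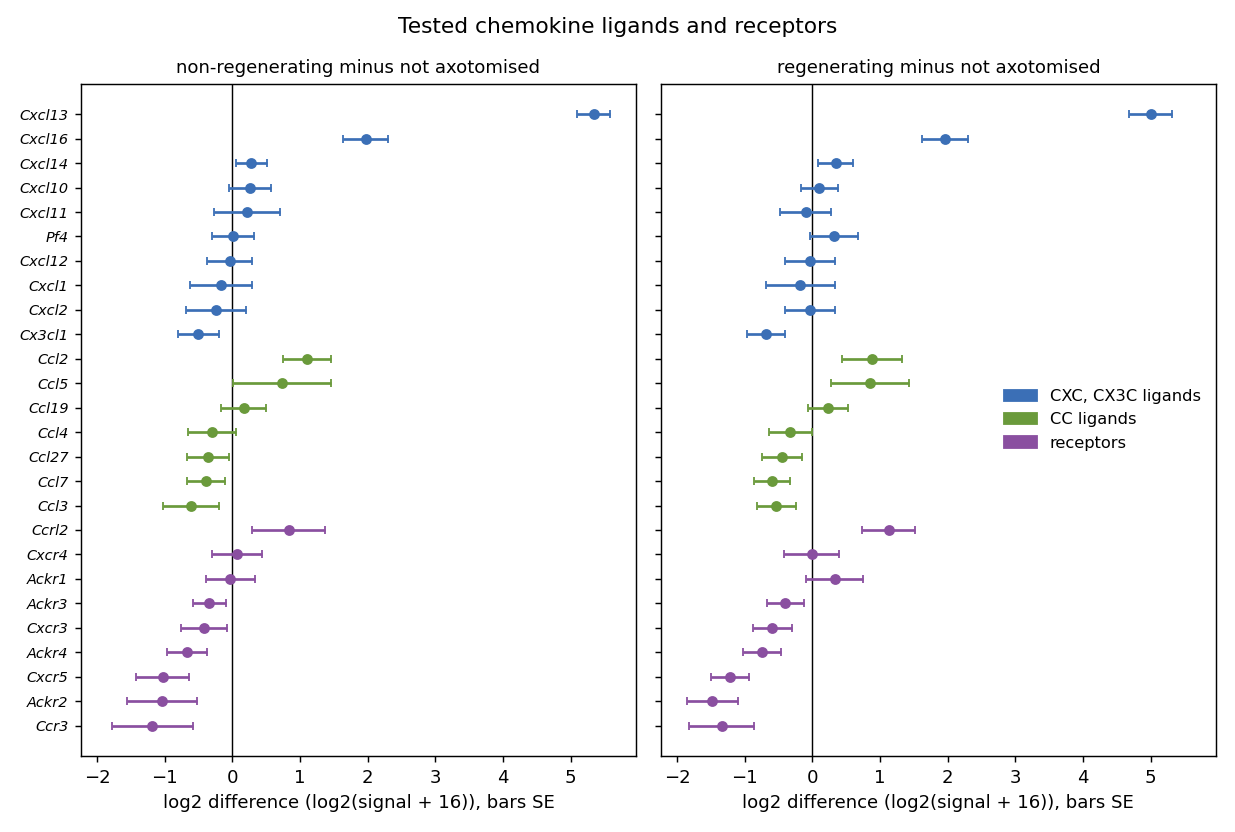
Log2 difference from not axotomised neurons, with its SE, for the 26 tested chemokine ligands and receptors, non-regenerating on the left and regenerating on the right. Cxcl13 lies at 5.34 and 4.999, Cxcl16 at 1.97 and 1.96, and every other gene between -1.47 and 1.13.

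Cxcr5, the receptor of CXCL13, was measured by 2 tested probe sets. At the brighter one its signal was 386.3 in MM15, 201.8 in MM18 and 196.6 in MM19 without axotomy, 68.3 to 256 in non-regenerating neurons (median 87.5) and 70.1 to 138 in regenerating neurons (median 94). The regenerating arrays all lay below the not axotomised ones, as was the case for 9.36% of all tested probe sets. The non-regenerating arrays overlapped the not axotomised ones. The log2 difference was -1.03 in non-regenerating neurons (SE 0.39, adjusted p = 0.47 by limma) and -1.21 in regenerating neurons (SE 0.28, adjusted p = 0.068 by limma), so neither passed. The other probe set gave -1.04 and -1.38, with adjusted p values of 0.47 and 0.088 by limma. The receptor's level thus did not rise beside its ligand's at either probe set.

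Among all 24 receptors listed, 17 were on the array and 9 were tested, and 0 rose or fell by limma in either comparison. At the unadjusted threshold of 0.05, 0 were higher and 2 lower in non-regenerating neurons, and 1 was higher and 4 lower in regenerating neurons. Over all tested probe sets those shares were 2.68% higher and 7.61% lower, and 5.98% higher and 17.6% lower. The medians, -0.42 and -0.59, remained below 0 with quantile normalization (-0.25 and -0.33) and with arrays centred on their medians (-0.06 and -0.20). Cxcr3, a receptor of effector T cells at which CXCL13 has been described as a weaker ligand, had differences of -0.42 and -0.59. Ackr4, an atypical receptor that removes CCL19, CCL21 and, in some species, CXCL13, had differences of -0.67 and -0.74. Ackr2, which removes inflammatory CC chemokines, had differences of -1.04 and -1.47 (adjusted p = 0.47 and 0.068 by limma). Gpr183, a guidance receptor of follicular B cells, was not analysed here.

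Genes that act upstream of Cxcl13 in lymphoid stroma were read from a list of 31 lymphotoxin, TNF and NF-kB genes, of which 27 were on the array and 17 were tested. By limma 0 rose or fell in either comparison. At the unadjusted threshold of 0.05, 1 of the 17 was higher and 2 were lower in non-regenerating neurons, against 2.68% and 7.61% of all tested probe sets. In regenerating neurons 3 were higher and 5 lower, against 5.98% and 17.6%. The medians were 0.04 and -0.11, against -0.12 and -0.12 over all tested probe sets.

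Tnf, the cytokine TNF, had a signal of 31.3 in MM15, 37.2 in MM18 and 32.5 in MM19 without axotomy, 40.5 to 178.4 in non-regenerating neurons and 49.1 to 123.1 in regenerating neurons. Both axotomised groups lay above all not axotomised arrays. The lowest non-regenerating signals, 41.1 in MM14 and 40.5 in MM16, were below the medians of their arrays, 52.6 and 69.3. The highest non-regenerating ones were 178.4 in MM17, 130.5 in MOON265 and 118.5 in MOON266. Tnf was read at the brighter of its 2 probe sets. Its log2 differences were 0.97 (SE 0.39, adjusted p = 0.47 by limma) and 0.88 (SE 0.27, adjusted p = 0.080 by limma), which did not pass. Of all tested probe sets, 1.1% and 2.35% were likewise higher without overlap in these comparisons.

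Ltb, which encodes lymphotoxin beta, had differences of -0.68 and -0.73. Lta and the receptor gene Ltbr were too dim to be tested, with group means of 14.8 to 24.3 and 13.3 to 18.1. Il17ra, a receptor subunit for interleukin 17, had differences of 0.74 and 1.55 (adjusted p = 0.59 and 0.068 by limma). Relb, the NF-kB subunit of the lymphotoxin pathway, had -1.03 and -1.14, and Birc3, an NF-kB target that also restrains this pathway, had -1.004 and -1.10, with adjusted p values of 0.47 in non-regenerating and 0.068 in regenerating neurons by limma. The members with the smallest p thus lay in both directions.

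The cells on which CXCL13 acts were looked for through their markers. Of 24 B cell markers, 15 were on the array and 9 were tested. By limma 0 rose or fell in non-regenerating neurons, where 2 were higher and 2 lower at p under 0.05 without adjustment, against 2.68% and 7.61% of all tested probe sets. In regenerating neurons 1 rose and 0 fell, and without adjustment 1 was higher and 4 were lower, against 5.98% and 17.6%. The gene that rose was Blnk, an adaptor of B cell receptor signalling that is also expressed in macrophages and microglia.

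Blnk had a signal of 214.5 in MM15, 220.3 in MM18 and 206.1 in MM19 without axotomy, 435.8 to 759.7 in non-regenerating neurons (median 545.9) and 492.1 to 862 in regenerating neurons (median 645.5). Neither axotomised group overlapped the not axotomised arrays, where 1.1% (non-regenerating) and 2.35% (regenerating) of all tested probe sets were likewise higher without overlap. Its log2 difference was 1.54 in regenerating neurons (SE 0.23, adjusted p = 0.021 by limma) and 1.34 in non-regenerating neurons (SE 0.22, adjusted p = 0.051 by limma). The call was lost without any 1 of the not axotomised arrays, with differences of 1.54, 1.56 and 1.52 and adjusted p values of 0.13, 0.11 and 0.085 by limma without MM15, MM18 and MM19.

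Markers more particular to B cells were not called. Ms4a1, which encodes the B cell surface protein CD20, had differences of -1.27 and -1.24, and Cd22, a B cell inhibitory receptor, had -1.16 and -1.45. Cd79b, a chain of the B cell receptor complex, was too dim, with a signal of 1.2 to 3.5 over all 17 arrays. Cd37, a tetraspanin of mature B cells, had 0.77 and 0.69. The summed signal of the 15 markers was 1624 to 2077 without axotomy, 1317 to 2543 in non-regenerating and 1160 to 2121 in regenerating neurons, so the groups overlapped. Cd79a was not analysed here.

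Of 20 T cell and follicular helper markers, 17 were on the array and 9 tested, and 0 rose or fell by limma in either comparison. At the unadjusted threshold of 0.05, 0 were higher and 1 lower in non-regenerating neurons, against 2.68% and 7.61% of all tested probe sets. In regenerating neurons 1 was higher and 2 were lower, against 5.98% and 17.6%. Cd4, the co-receptor of helper T cells, had differences of -0.95 and -1.03, and Bcl6, the transcription factor of follicular helper T cells and germinal centre B cells, had 0.44 and 0.69. Of 12 markers of follicular dendritic and stromal cells, 11 were on the array and 8 tested, and 0 rose or fell by limma. On the same threshold and against the same shares, 1 of these 8 was higher and 0 lower in non-regenerating neurons, and 2 were higher and 2 lower in regenerating neurons. Pdpn, the stromal glycoprotein podoplanin, had differences of 0.81 and 0.92, and Madcam1, an adhesion molecule of follicular dendritic cells, -0.76 and -0.86. Cr2 and Fcer2, the complement and IgE receptors that mark follicular dendritic cells, were too dim.

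Some markers of microglia and macrophages also differed between axotomised and not axotomised neurons. Of 30 such genes 26 were on the array and 21 were tested. In non-regenerating neurons 2 rose, Plek and Lgals3, and in regenerating neurons 5 rose, Plek, Lgals3, C1qa, Lyz2 and Laptm5, while 0 fell in either comparison. Without adjustment 12 were higher and 0 lower at p under 0.05 in each, against 2.68% and 7.61% of all tested probe sets in the first and 5.98% and 17.6% in the second. The median difference was 0.85 and 0.71, against -0.12 and -0.12 over all tested probe sets, and 19 and 20 of the 21 were above 0, against 38.8% and 40.8% of all. The median was also above 0 with quantile normalization (0.91 and 0.85) and with arrays centred on their medians (1.21 and 1.10).

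The summed signal of the 26 genes was 8120 to 10237 without axotomy, 14148 to 23683 in non-regenerating and 14544 to 25952 in regenerating neurons. Like Cxcl13, the sum separated the axotomised arrays from the others without overlap. Among defining markers, Itgam, the integrin chain CD11b, was near 0, with a signal of 1.8 to 7.3 over all arrays. Cx3cr1 and Tyrobp were also too dim to be tested, with group means of 26.6 to 61.2 and 31.5 to 61.9 that were highest without axotomy. P2ry12, a purinergic receptor of resting microglia, had differences of 1.08 and 1.12 (adjusted p = 0.33 and 0.068 by limma), and Aif1, which encodes IBA1, had 1.47 and 1.86 (adjusted p = 0.47 and 0.091 by limma). The part of these cells in the Cxcl13 difference was not tested.

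Plek encodes pleckstrin, a protein kinase C substrate of platelets and myeloid cells. Its signal was 168.7 in MM15, 249.9 in MM18 and 174.5 in MM19 without axotomy, 750.6 to 1395 in non-regenerating neurons (median 1054) and 578.3 to 1241 in regenerating neurons (median 976.6). Both axotomised groups lay above the not axotomised arrays, as did 1.1% and 2.35% of all tested probe sets, and overlapped each other. The difference of Plek from not axotomised neurons was 2.30 (SE 0.23, adjusted p = 7.5e-04 by limma) and 2.13 (SE 0.25, adjusted p = 0.0064 by limma). In regenerating neurons the call was lost without not axotomised MM15 (2.03, adjusted p = 0.090 by limma).

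Lgals3, which encodes the lectin galectin 3 of activated macrophages, differed by 1.69 (SE 0.25, adjusted p = 0.034 by limma) and 2.08 (SE 0.30, adjusted p = 0.020 by limma). C1qa, a chain of complement C1q, rose by 1.52 (SE 0.25), Lyz2, the macrophage lysozyme, by 1.46 (SE 0.26), and Laptm5, a lysosomal membrane protein of blood cells, by 1.58 (SE 0.25) in regenerating neurons, with adjusted p values of 0.021 to 0.033 by limma. These calls rested on few not axotomised arrays. Without MM15 the values were 1.96 for Lgals3, 1.41 for C1qa, 1.42 for Lyz2 and 1.44 for Laptm5 in regenerating neurons, with adjusted p values of 0.14 to 0.22 by limma. Without MM18 they were 1.97, 1.55, 1.51 and 1.64 (0.11 each by limma), and without MM19 C1qa, Lyz2 and Laptm5 were also lost (1.59, 1.45 and 1.65). Leaving out regenerating MM13 ended the calls of C1qa (1.53), Lyz2 (1.48) and Laptm5 (1.60), and leaving out MM11 or MM14 those of C1qa (1.44 and 1.47) and Lyz2 (1.49 and 1.498). In non-regenerating neurons the call of Lgals3 was lost without MM15 (1.56) or MM18 (1.57), and without non-regenerating MM11 (1.67), MM13 (1.68), MM14 (1.63), MM16 (1.65) or MOON266 (1.70), as well as among MM animals alone (1.78) and with an offset of 64 (1.32). That of Lyz2 was also lost with the animal as a random block over all samples (1.46, adjusted p = 0.0515 by limma).

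The median of the astrocyte markers also lay above that of all tested probe sets. Of 14 markers tested, 0 rose or fell in non-regenerating neurons by limma, where 5 were higher and 0 lower at p under 0.05 without adjustment, against 2.68% and 7.61% of all tested probe sets. In regenerating neurons 1 rose, and without adjustment 3 were higher and 1 lower, against 5.98% and 17.6%. That gene was Gfap, the intermediate filament of reactive astrocytes, whose group means were 1227, 3210 and 3116 in not axotomised, non-regenerating and regenerating neurons. Its difference was 1.33 in regenerating neurons (SE 0.22, adjusted p = 0.026 by limma) and 1.36 in non-regenerating neurons (SE 0.24, adjusted p = 0.072 by limma). The call was lost without not axotomised MM15 (1.16), MM18 (1.40) or MM19 (1.43) or regenerating MM13 (1.34). The list medians were 0.32 and 0.41, and 0.38 and 0.43 with quantile normalization. The summed signal of the 14 markers was 17753 to 23963, 17909 to 32444 and 18663 to 30026 in the same order of groups, so these overlapped.

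Markers of oligodendrocytes (10 tested), of vessels and fibroblasts (13 tested) and of neurons (17 tested) gave 0 calls by limma in either comparison. At an unadjusted p under 0.05 the counts in non-regenerating neurons were 0, 1 and 1 lower and 0 higher in each list, against 7.61% lower and 2.68% higher over all tested probe sets. In regenerating neurons they were 0, 2 and 2 lower and 0, 1 and 1 higher, against 17.6% and 5.98%. Summed neuron markers overlapped between the groups, at 34001 to 77725 without axotomy, 25667 to 78608 in non-regenerating and 27427 to 49594 in regenerating neurons. The highest sums without axotomy and in non-regenerating neurons were those of MM15 and MM17, the 2 arrays that stood apart. A sum of neuron markers does not show which cells the Cxcl13 RNA came from, and this was not tested.

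Genes known to respond to axotomy in the cell body were read from a list of 15 tested genes. By limma 0 rose in non-regenerating neurons, where 7 were higher and 1 lower at p under 0.05 without adjustment, against 2.68% and 7.61% of all tested probe sets. In regenerating neurons 1 rose, and without adjustment 6 were higher and 1 lower, against 5.98% and 17.6%. The medians were 0.78 and 0.88, and 13 and 14 of the 15 were above 0, against 38.8% and 40.8% of all tested probe sets. Mt2A, a metallothionein that binds zinc, rose by 1.68 in regenerating neurons (SE 0.27, adjusted p = 0.024 by limma) and had a difference of 1.71 in non-regenerating neurons (SE 0.29, adjusted p = 0.060 by limma). That call was lost without not axotomised MM15 (1.87), MM18 (1.53) or MM19 (1.64) or regenerating MM13 (1.73). Atf3, a transcription factor induced by axotomy, had differences of 2.32 (SE 0.50, adjusted p = 0.20 by limma) and 2.51 (SE 0.60, adjusted p = 0.068 by limma). Its signal was 33.3 to 150.2 without axotomy and 123.3 to 1359 over the axotomised arrays, so unlike Cxcl13 its groups overlapped.

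**Figure D4:**
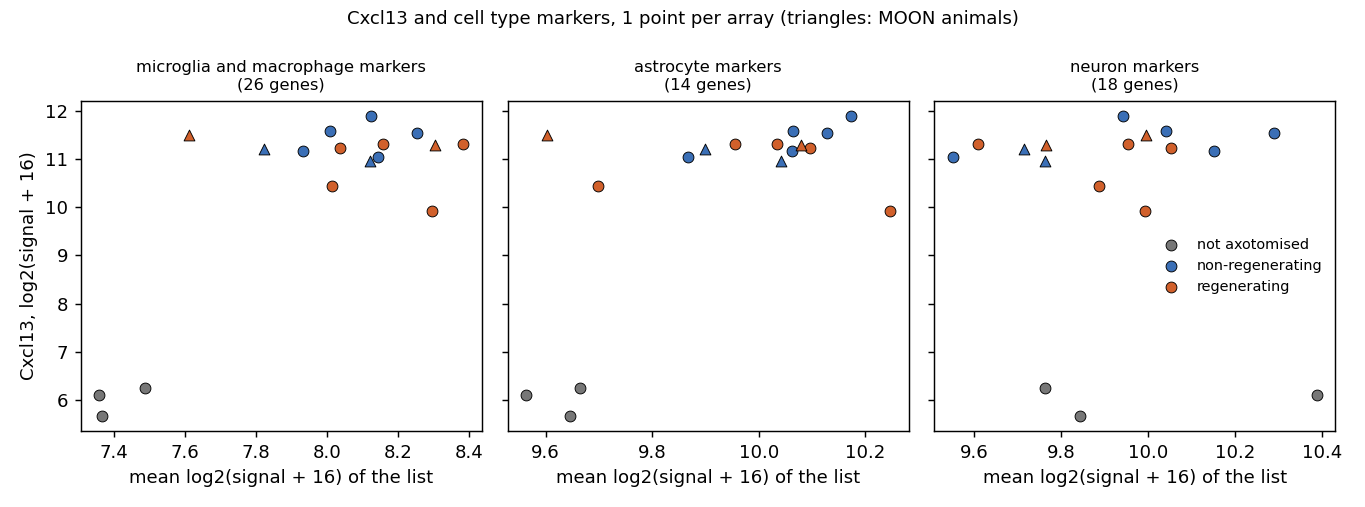
Cxcl13 against the mean log2 signal plus 16 of 3 marker lists (microglia and macrophage, astrocyte, neuron), 1 point per array, coloured by group, with triangles for MOON animals. The microglia and macrophage mean is at most 7.49 without axotomy and at least 7.61 with it, while the neuron means of the groups overlap.

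Among the 14 axotomised arrays the marker level and Cxcl13 did not order the arrays alike. Regenerating MM17, which had the lowest Cxcl13 signal of them, had a microglia and macrophage sum of 18933 within a group range of 14544 to 25952. After the mean of each axotomised group was removed, the correlation of Cxcl13 over the 14 arrays was 0.39 with Plek, 0.07 with C1qa, 0.09 with Lyz2, -0.21 with Lgals3 and -0.09 with Gfap. These r values are descriptions, and samples of 1 animal share that animal. They do not address the difference from not axotomised arrays, whose source was not tested.

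Between regenerating and non-regenerating neurons, 0 members of any of the lists were called by limma, where 0.0107% of all tested probe sets were called higher and 0.00537% lower. At an unadjusted p under 0.05, 0 of the 9 other CXC, CX3C and C ligands and 0 of the 7 CC ligands were different, and of the 9 receptors 1 was lower, Ackr2. Of the 9 other CXC, CX3C and C ligands 4 were above 0, against 49.8% of all tested probe sets. Without adjustment 5 of the 15 axotomy response genes were higher and 0 lower, against 4.26% and 2.81% of all tested probe sets. Of the 21 microglia and macrophage markers 3 were higher and 2 lower, of the 17 upstream genes 2 were higher, and of the 8 follicular dendritic and stromal markers 1 was higher. Of the 13 vessel and fibroblast markers and of the 17 neuron markers 1 each was higher and 1 lower. The B cell, T cell, astrocyte and oligodendrocyte lists gave 0 in either direction.

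The genes whose pattern over the arrays was most like that of Cxcl13 were taken from 13223 other tested probe sets with a single symbol, by Pearson r of log2 signal plus 16. Over all 17 arrays the 8 with the highest r were Plek (0.94), Fcrl2 (0.91), Kazn (0.88), Fcgr2b (0.86), Cxcl16 (0.86), Gfap (0.85), Pik3cd (0.85) and Tgfbr1 (0.85). The arrays form separate clusters, low without axotomy and high with it, and these values rest on that gap. In each of the 8 genes the lowest axotomised array exceeded the highest not axotomised one, which their choice by this r made likely. Such a separation was seen in 1.1% of all tested probe sets for non-regenerating and 2.35% for regenerating neurons.

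Fcgr2b, a low-affinity Fc receptor of B cells and myeloid cells, had a signal of 14.1 to 57.6 without axotomy and 154 to 537.4 with it. Fcrl2, an Fc receptor-like gene, had 110 to 129 and 362.7 to 1059. Kazn, which encodes the cell junction protein kazrin, had 10.9 to 16.3 and 43.1 to 133. Pik3cd, the catalytic PI3 kinase subunit found mainly in leukocytes, had 21.2 to 39.3 and 86.7 to 203.3. Tgfbr1, a receptor for TGF-beta, had 379.3 to 591.4 and 879.8 to 1996. All were measured on the same arrays as Cxcl13, and their likeness carries no test.

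Within the axotomised groups the same 8 genes had a lower r with Cxcl13, though 14 arrays leave such values imprecise. With the group means removed, r over the 14 axotomised arrays was 0.39 for Plek, 0.26 for Tgfbr1 and 0.19 for Fcrl2. It was 0.08 for Kazn, 0.10 for Fcgr2b, 0.02 for Cxcl16, -0.09 for Gfap and -0.41 for Pik3cd. The 8 genes with the highest r on this measure were Dyrk1a (0.72), Cdh7 (0.72), Rab8b (0.72), Brd1 (0.70), Gbp4 (0.68), Tatdn2 (0.68), Snrnp70 (0.66) and Pcsk2 (0.66), and 0 of them were among the first 8. All 8 of them, like Cxcl13, had their lowest regenerating value in MM17. Without that array, a check chosen after seeing the data, their r fell to between 0.31 and 0.58 over 13 arrays, and 0 of them stayed among the 8 highest. Rab8b, a small GTPase of vesicle traffic, had group means of 428, 518 and 566 in not axotomised, non-regenerating and regenerating neurons. Dyrk1a, a protein kinase, had 20.2, 48.3 and 35.1.

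**Figure D5:**
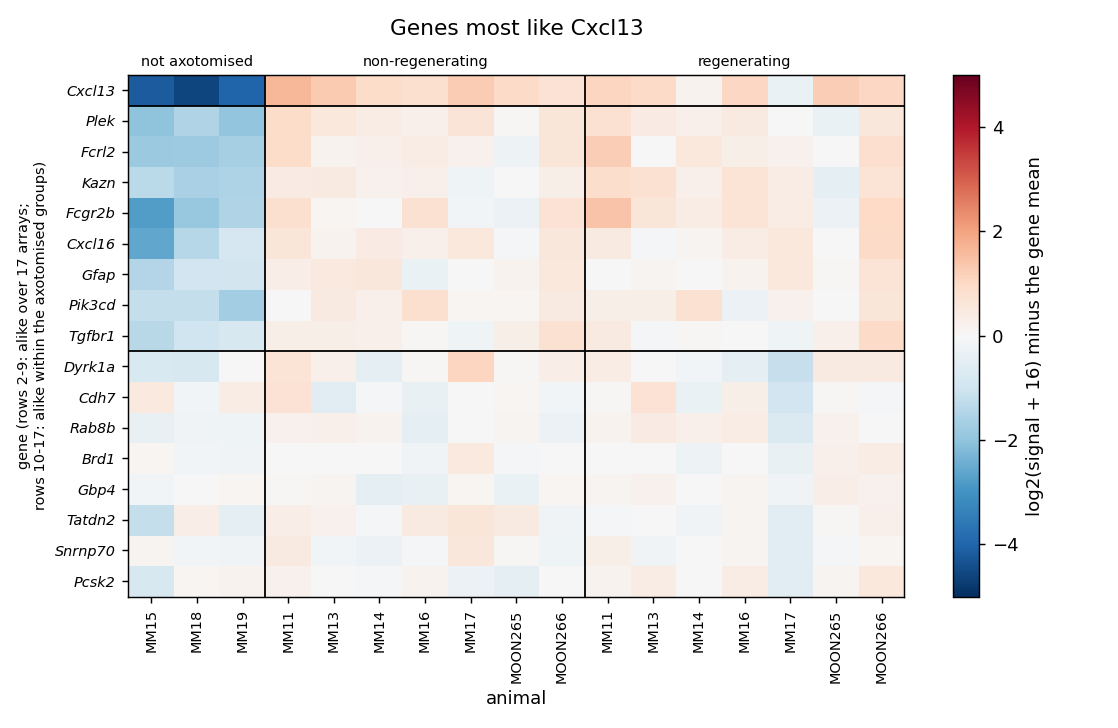
Heat map of log2 signal plus 16 minus the mean of each gene over the 17 arrays, with Cxcl13 in the top row, the 8 genes most like it over 17 arrays next and the 8 most like it within the axotomised groups last. The first 8 genes are below their mean on the 3 not axotomised arrays, as is Cxcl13, whose groups differ by 5.34 and 4.999.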

How the data were processed

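Expression was measured on 17 rat Affymetrix arrays, 1 per sample of 1000 laser captured neurons. The intensity values were signals per probe set on a linear scale that the authors deposited, made with GCOS per the submitters' processing notes (its version is not given in the sources used here). Each array's mean without the lowest and highest 2% was nearly equal, so signals were used as deposited. Groups and the pairing by animal came from the titles. Deviations from group means correlated with r = 0.34 to 0.71 between the samples of 1 animal, and 0 array pairs held identical values.

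An offset of 16 was added before log2. The 57 control and 12417 dim probe sets were left out, and 18625 were tested by lmFit and a trended eBayes of limma 3.58.1 (R 4.3.3) with Benjamini-Hochberg adjustment, with the animal as a block for regenerating against non-regenerating neurons and between animals otherwise. Whether samples of a group differ as animals do rests on the animal names in the titles. Genes came from the platform annotation: 20832 probe sets had 1 symbol, 436 several and 9831 none, and each listed gene was read at its brightest probe set. Such annotation can be old. Genes named were drawn from list members with an adjusted p under 0.05 and the 2 with the smallest p per list and comparison. A set of Cxcl13-related genes and the 8 most like Cxcl13 on either measure were added. Some members with the smallest p are not named, such as Syt1, Chat and Slc32a1 of the neuron list and those of the oligodendrocyte and vessel lists. Members beyond these rules serve as marker checks and were added after their values were seen. Cxcl13, the lists and the tests were chosen with earlier results of these data known. The fits were tested on simulated data. Promoters came from RefSeq (GRCr8). Figures used Python 3.11.15 and matplotlib 3.10.9. Alternatives covered the offset, filter, scaling, trend, weights, block, name prefix and leaving out arrays.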

Additional observations from a re-analysis of the deposited data

Results flagged for a closer look

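The summed signal of the 26 microglia and macrophage markers in regenerating MOON266 was 25951.7. It stood apart from the other 6 regenerating samples, with a gap to the next one of 0.615 of the group's range, above Dixon's 95% critical value for 7 samples. Of 5 sets of 7 values tested in this way it was the only one past that value, and chance alone passes about 1 in 20. Cxcl13 in the same sample was 2498.1, the median of the regenerating group.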

How the results depend on the processing

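Cxcl13 lay above not axotomised neurons in all 21 other settings of either comparison, by 4.56 to 5.73 in non-regenerating and 4.22 to 5.39 in regenerating neurons. It moved by more than the spread between replicates with an offset of 1 (5.73), an offset of 64 (4.56) and centring on array medians (5.70) in the first, and with an offset of 64 (4.22) in the second. Leaving out single arrays gave 5.17 to 5.47 and 4.83 to 5.18. Within animals it stayed between -0.61 and -0.13 over 19 settings, with adjusted p values by limma of 0.47 or more. With no replicate block it was -0.34 (adjusted p = 0.9999 by limma), and leaving out single animals gave -0.46 to -0.13.

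Counts of calls moved far more than Cxcl13, and the cause was not tested. Higher calls in non-regenerating against not axotomised neurons, 8 as reported, were 23 with a random animal block, 553 with array weights, 3 with MM animals alone, 5 with no filter, 3 with an offset of 64 and 17 with quantile normalization, and 2 (without not axotomised MM18) to 33 (without non-regenerating MM17) leaving out single arrays. Lower calls, 0 as reported, were 1887 with array weights, 1 with no filter and 0 to 4 leaving out single arrays. For regenerating against not axotomised neurons, 29 higher calls became 860 with array weights, 279 with centring, 19 with a filter at the 70th percentile, 60 with MM animals alone, 125 with an offset of 64, 142 with quantile normalization, 1 without the 2 arrays that stood apart, and 1 (without not axotomised MM15) to 188 (without regenerating MM17). The 11 lower calls became 2 with a random animal block, 2271 with array weights, 50 with centring, 1 with the 70th percentile filter, 24 with no filter, 4 and 746 with offsets of 1 and 64, 72 with quantile normalization, 0 without the 2 arrays, and 0 to 1316 leaving out single arrays. Within animals, 2 higher calls became 1 with a random block, centring, no trend, the 70th percentile filter, MM animals alone or an offset of 64. They became 0 with no filter, no replicate block, an offset of 1, quantile normalization or without the 2 arrays, and 0 to 2 leaving out single animals. The 1 lower call became 0 with a random block, MM animals alone, no filter, no replicate block, an offset of 1, quantile normalization or without the 2 arrays, and 0 to 1 leaving out single animals.

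Of 1703 comparisons of uncalled gene values with an alternative, 1584 stayed uncalled in the same direction, 101 became calls and 18 changed sign. Ccl19 became -0.27 and -0.10 with array weights and -0.30 and -0.093 without the 2 arrays in non-regenerating and regenerating neurons, and leaving out single arrays gave -0.16 to 0.41 and -0.093 to 0.47. Cxcl12 became 0.32 and 0.36 with centring and 0.014 without the 2 arrays in non-regenerating neurons, and leaving out single arrays gave -0.19 to 0.085 and -0.24 to 0.11. Map2 in non-regenerating neurons became -0.057 without the 2 arrays, and -0.18 to 0.59 leaving out single arrays. Of the 8 genes most like Cxcl13 over 17 arrays, 7 were shared with an offset of 1, 1 with Spearman rho and 0 with r over the 14 axotomised arrays alone. Signals near background limit the values of dim genes.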
